A study of Mus musculus with 16 samples.

Results

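The complement genes C1qa, C1qb, C1qc, C1s, C1ra, C3, C4b, Cfb and Serping1 were followed in MEFs, fibroblasts cultured from mouse embryos. The list was set by gene name, with earlier results of these data known, and 8 of these 9 genes were among the 19938 genes measured, each by a single probe set. C1s appears in the annotation under its current symbol C1s1, and C3 was not analysed here. Expression was measured on 16 Affymetrix Mouse Gene 1.0 ST arrays, with 4 arrays in each of 4 groups. These were TNFα treated SIMPL-/- MEFs, untreated SIMPL-/- MEFs, TNFα treated littermate MEFs and untreated littermate MEFs. SIMPL is the product of Irak1bp1, and the labels call the genotypes IRAK1BP1-/- and WT, all on a C57Bl/6 x 129Sv strain. By the labels, TNFα was the recombinant human protein at 10 ng/ml for 45 min. The SIMPL-/- MEFs came from knockout mice, and by the methods the MEFs of each strain came from a single embryo on 4 separate occasions. The study set the genotypes side by side to find genes whose response to TNFα depends on SIMPL.

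Complement is a cascade of plasma and cell-surface proteins that marks targets for uptake or lysis. In its classical pathway C1q recognises bound antibody or other ligands and carries the proteases C1r and C1s, which cleave C4 and C2, and in its alternative pathway factor B takes the place of C2. Macrophages and dendritic cells are the main source of C1q, whereas hepatocytes make most of the circulating proteases, C4, factor B and C1 inhibitor, and fibroblasts in culture can make these as well.

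The 3 genes of the C1q chains lie side by side on chromosome 4, C1qb at 136880126-136886200, C1qc at 136889801-136892936 and C1qa at 136895916-136898844 (GRCm38), and together they span 18719 bases. The 2 protease genes are neighbours on chromosome 6, with C1ra at 124512621-124523440 and C1s at 124530344-124542392 and 6903 bases between them. C4b and Cfb lie on chromosome 17 at 34728139-34743902 and 34856374-34862514, and Serping1 lies on chromosome 2 at 84765360-84775444. RefSeq windows of 300 bases, from 250 before to 50 after the annotated start, were given for 4 of the 8 genes (C1qb, C1qc, C1s and C1ra). Below are those of C1qb and C1qc, the genes with the lowest adjusted p-values between the genotypes, and that of C1s, a gene outside the C1q cluster that also differed by more than 2 log2 units. Capitals mark matches, on either strand, to a PU.1 core (GAGGAA), an IRF core (AANNGAAA), a GAS element (TTCNNNGAA) or the κB consensus.
C1qb (chr4:136886151-136886450, minus strand): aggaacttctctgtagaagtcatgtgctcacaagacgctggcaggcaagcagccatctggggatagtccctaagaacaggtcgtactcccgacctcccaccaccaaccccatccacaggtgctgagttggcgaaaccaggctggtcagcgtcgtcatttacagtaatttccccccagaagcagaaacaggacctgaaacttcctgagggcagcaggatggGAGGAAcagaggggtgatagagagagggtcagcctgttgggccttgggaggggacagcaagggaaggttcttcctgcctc
C1qc (chr4:136892865-136893164, minus strand): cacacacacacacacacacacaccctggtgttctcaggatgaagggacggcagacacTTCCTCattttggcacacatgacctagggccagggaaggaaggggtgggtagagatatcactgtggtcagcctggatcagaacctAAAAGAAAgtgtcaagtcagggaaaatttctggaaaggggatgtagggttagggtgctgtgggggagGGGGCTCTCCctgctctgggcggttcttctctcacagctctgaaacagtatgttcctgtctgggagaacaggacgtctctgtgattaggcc
C1s (chr6:124542310-124542609, minus strand): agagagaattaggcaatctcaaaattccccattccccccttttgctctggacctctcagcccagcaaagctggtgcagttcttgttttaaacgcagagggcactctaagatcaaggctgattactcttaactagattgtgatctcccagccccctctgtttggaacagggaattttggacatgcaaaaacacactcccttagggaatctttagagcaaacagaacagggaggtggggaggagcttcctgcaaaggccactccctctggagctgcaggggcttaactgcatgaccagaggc

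The C1qb window held 1 match, a PU.1 core on the plus strand of the window at its bases 221 to 226. The C1qc window held 3 matches that do not overlap. These were a PU.1 core on the opposite strand at bases 58 to 63, an IRF core at bases 143 to 150 and a κB consensus at bases 210 to 219. The C1s window held none of the 4 motifs, nor did a second C1s window that overlaps it. In the C1ra window, a GAS element was found at bases 283 to 291 and a PU.1 core on the opposite strand at bases 295 to 300. Of all 32851 promoter windows, 28.3% held a PU.1 core, 23.9% an IRF core, 8.3% a GAS element and 8.46% a κB consensus. A match describes the letters alone.

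Irak1bp1 was examined first as a check on the labels. Its log2 values were 5.08 to 5.60 on TNFα treated and 5.16 to 5.62 on untreated SIMPL-/- arrays, against 7.65 to 8.03 on TNFα treated and 7.85 to 8.21 on untreated littermate arrays. Whether its probe set lies in the deleted stretch was not examined. The deposited values are log2 intensities from RMA, a method that corrects background, equalises the arrays and summarises the probes of a set. The array medians over all deposited probe sets lay between 6.67 and 6.76, and arrays of one group correlated across genes at 0.995 or above. A gene was called at an adjusted p under 0.05 from limma, with Benjamini-Hochberg adjustment over all genes of a comparison. Neither labels nor methods name a hybridisation batch, so none was fitted, and p-values measure only the spread between these arrays.

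Expression of all 3 C1q chains was lower in SIMPL-/- MEFs than in littermate MEFs, by 5.76-fold to 7.14-fold with TNFα and by 5.64-fold to 7.14-fold without it. C1s was lower by 4.38-fold with and 4.73-fold without TNFα. C1ra and Serping1 were lower by less, and C4b and Cfb were higher. In each case the arrays of the genotypes did not overlap at the same treatment.

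**Figure D1:**
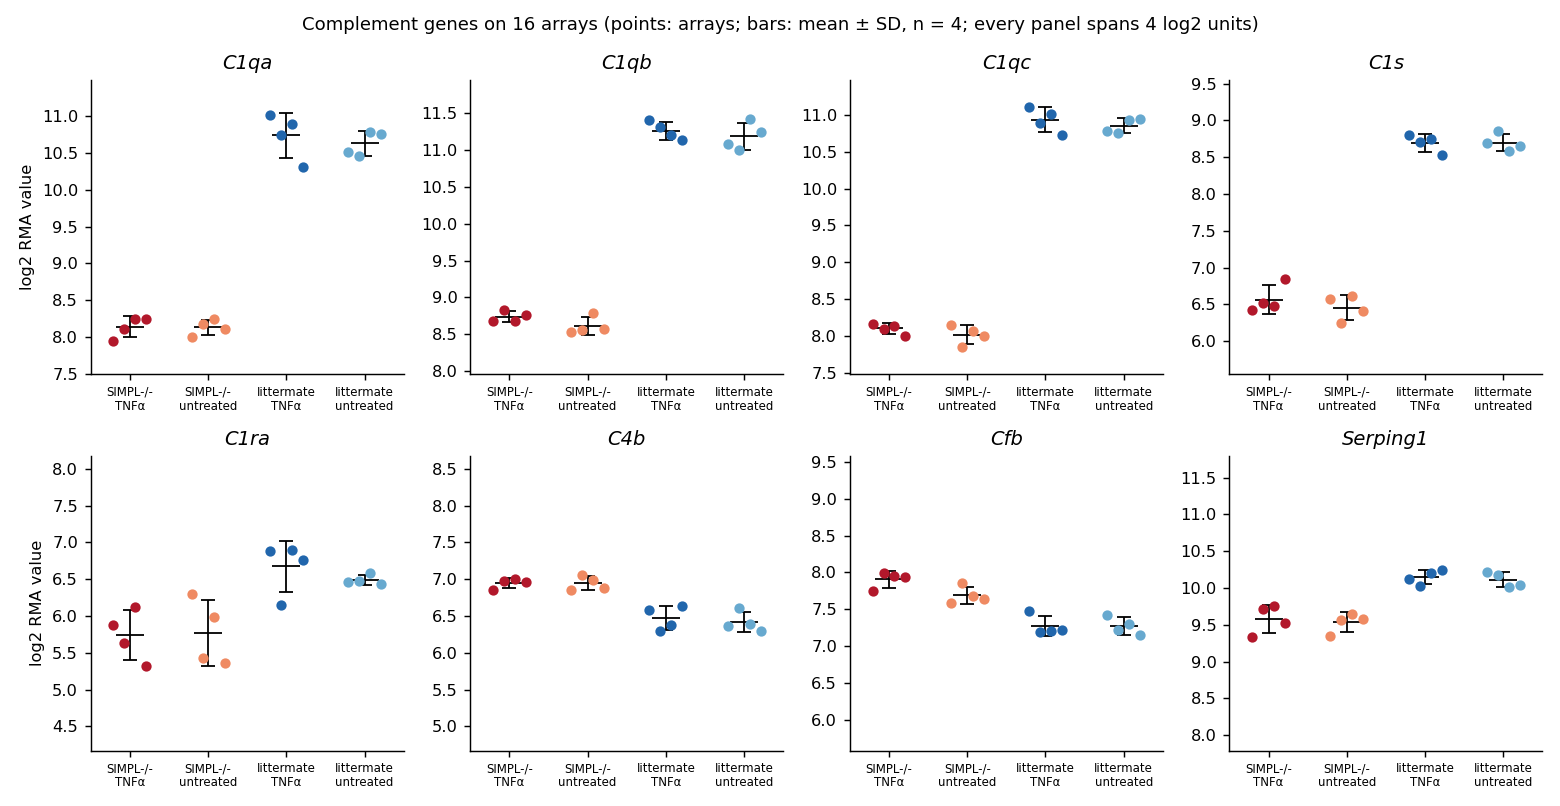
Log2 RMA values of the 8 complement genes on each array (points), with the mean and SD of each group of 4 arrays (bars); groups run along the horizontal axis and every vertical axis spans 4 log2 units. C1qa, C1qb, C1qc and C1s lie more than 1.5 log2 units lower on every SIMPL-/- array than on any littermate array, C4b and Cfb lie higher, and TNFα treated and untreated arrays of a genotype overlap.

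C1qa, which encodes the A chain of C1q, had log2 values of 7.94, 8.11, 8.25 and 8.25 on the TNFα treated SIMPL-/- arrays and 8.0, 8.18, 8.24 and 8.11 on the untreated SIMPL-/- arrays, against 11.01, 10.74, 10.89 and 10.31 on the TNFα treated littermate arrays and 10.52, 10.45, 10.79 and 10.76 on the untreated littermate arrays. All 8 SIMPL-/- arrays lay below all 8 littermate arrays, and within the littermate MEFs the fourth TNFα treated array was the lowest. The difference was −2.60 on the log2 scale with TNFα (SE 0.12, adjusted p = 3.44e-12 from limma) and −2.50 without TNFα (adjusted p = 7.43e-12).

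C1qb, which encodes the B chain, had log2 values of 8.68, 8.83, 8.68 and 8.76 on the TNFα treated SIMPL-/- arrays and 8.54, 8.56, 8.79 and 8.56 on the untreated SIMPL-/- arrays, against 11.41, 11.32, 11.20 and 11.13 on the TNFα treated littermate arrays and 11.08, 11.00, 11.42 and 11.24 on the untreated littermate arrays. The genotypes were again apart on every array, with the third untreated SIMPL-/- array above the other 3 of its group. The difference was −2.53 with TNFα (SE 0.09, adjusted p = 8.80e-14) and −2.58 without TNFα (adjusted p = 6.55e-14). C1qc, which encodes the C chain, had log2 values of 8.16, 8.10, 8.14 and 8.0 on the TNFα treated SIMPL-/- arrays and 8.15, 7.84, 8.07 and 8.0 on the untreated SIMPL-/- arrays, against 11.11, 10.88, 11.02 and 10.72 on the TNFα treated littermate arrays and 10.78, 10.75, 10.93 and 10.94 on the untreated littermate arrays. Of the members it had the difference farthest from 0, at −2.84 with TNFα (SE 0.08, adjusted p = 1.35e-14) and −2.84 without TNFα (adjusted p = 1.48e-14). Only 12 of the 19938 genes fell further than C1qc in untreated cells, whereas 25 fell further than C1qb and 31 further than C1qa.

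C1s, the protease of the C1 complex that cleaves C4 and C2, had log2 values of 6.43, 6.51, 6.47 and 6.85 on the TNFα treated SIMPL-/- arrays and 6.57, 6.24, 6.61 and 6.41 on the untreated SIMPL-/- arrays, against 8.81, 8.71, 8.75 and 8.53 on the TNFα treated littermate arrays and 8.70, 8.86, 8.59 and 8.65 on the untreated littermate arrays. The arrays of the genotypes lay well apart, and the fourth TNFα treated SIMPL-/- array was the highest of its genotype. The difference was −2.13 with TNFα (SE 0.10, adjusted p = 2.98e-12) and −2.24 without TNFα (adjusted p = 1.84e-12). C1ra, the protease that activates C1s, had log2 values of 5.88, 5.64, 6.12 and 5.32 on the TNFα treated SIMPL-/- arrays and 6.30, 5.44, 5.99 and 5.36 on the untreated SIMPL-/- arrays, against 6.89, 6.15, 6.89 and 6.76 on the TNFα treated littermate arrays and 6.45, 6.47, 6.59 and 6.44 on the untreated littermate arrays. Its arrays scattered more than those of the other members, with an SD of 0.34 to 0.45 in 3 of the 4 groups, whereas the median gene had 0.09 to 0.10. At the same treatment the genotypes still did not overlap. The difference was −0.93 with TNFα (SE 0.20, adjusted p = 0.000829) and −0.72 without TNFα (adjusted p = 0.00700). By the methods' t-test the untreated difference of C1ra had an adjusted p of 0.0531 and was not called. C1ra and C1s each have a near-identical copy (C1rb and C1s2), and the probe sets may share signal with them. The genotype difference of C1s2 was −0.86 with TNFα (adjusted p = 8.24e-05 from limma) and −0.93 without it (adjusted p = 4.08e-05).

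Serping1, which encodes the C1 inhibitor that blocks C1r and C1s, had log2 values of 9.34, 9.72, 9.75 and 9.52 on the TNFα treated SIMPL-/- arrays and 9.34, 9.56, 9.65 and 9.58 on the untreated SIMPL-/- arrays, against 10.13, 10.03, 10.21 and 10.24 on the TNFα treated littermate arrays and 10.22, 10.18, 10.01 and 10.04 on the untreated littermate arrays. It was lower in SIMPL-/- MEFs by 1.49-fold both with TNFα (log2 difference −0.57, SE 0.09, adjusted p = 3.63e-05) and without it (−0.58, adjusted p = 3.72e-05), and no SIMPL-/- array reached the lowest littermate array. The proteases and their inhibitor thus had the same direction as the C1q chains, at sizes from 1.49-fold to 4.73-fold.

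C4b and Cfb ran the other way. C4b, which encodes complement component C4, had log2 values of 6.85, 6.98, 7.0 and 6.96 on the TNFα treated SIMPL-/- arrays and 6.86, 7.06, 6.98 and 6.88 on the untreated SIMPL-/- arrays, against 6.58, 6.29, 6.38 and 6.64 on the TNFα treated littermate arrays and 6.37, 6.60, 6.40 and 6.29 on the untreated littermate arrays. It was higher in SIMPL-/- MEFs by 1.39-fold with TNFα (log2 difference 0.47, SE 0.08, adjusted p = 0.000106) and by 1.44-fold without it (0.53, adjusted p = 3.44e-05). Cfb, which encodes factor B of the alternative pathway, had log2 values of 7.74, 7.99, 7.95 and 7.94 on the TNFα treated SIMPL-/- arrays and 7.59, 7.86, 7.67 and 7.63 on the untreated SIMPL-/- arrays, against 7.48, 7.19, 7.21 and 7.22 on the TNFα treated littermate arrays and 7.42, 7.22, 7.30 and 7.14 on the untreated littermate arrays. Every SIMPL-/- array was above every littermate array for both genes. The difference of Cfb was 0.63 with TNFα (SE 0.08, adjusted p = 4.20e-06) and 0.42 without TNFα (adjusted p = 0.000447), or 1.55-fold and 1.34-fold. C4b has a near-identical copy, C4a, and the split between their probe sets is uncertain. The genotype difference of C4a was 0.12 with TNFα (adjusted p = 0.430 from limma) and 0.55 without it (adjusted p = 0.000502).

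After TNFα, 6 of the 8 members were called lower and 2 higher in SIMPL-/- MEFs, where 18.4% of all genes were called lower and 17.8% higher. Without TNFα the same 6 were lower and the same 2 higher, and of all genes 17.6% were called lower and 23.3% higher. The median log2 difference over the members was −1.53 with and −1.48 without TNFα, whereas over all genes it was 0.03 with and 0.07 without TNFα. A fold over 1.5 was passed by 6 of the 8 with TNFα and by 5 without it. Over all 19938 genes, 1604 were called at that fold with TNFα and 1385 without it. The members under 1.5-fold in both comparisons were C4b and Serping1, and Cfb was also under 1.5-fold without TNFα. C1ra and C4b had every group mean below 7.05, the median of all values of the genes measured, and both were lost when dim genes were left out.

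No member was called for a TNFα response. In SIMPL-/- MEFs 0 of 8 were called, where 3.12% of all genes were, and in littermate MEFs 0 of 8 were called, where 5.15% of all genes were. At such shares a count of 0 among 8 genes does not set the members apart, and the intervals give the sizes that remain possible. Without adjustment, Cfb in SIMPL-/- MEFs was the single one of these 16 tests with a p under 0.05. Its log2 difference there was 0.22 (95% interval 0.05 to 0.39, adjusted p = 0.187), and in littermate MEFs it was 0.01 (−0.17 to 0.18). For the C1q chains the TNFα differences ran between 0.01 and 0.13 in SIMPL-/- MEFs and between 0.08 and 0.11 in littermate MEFs. The 95% intervals of the chains reached at most 0.31 in SIMPL-/- MEFs and 0.36 in littermate MEFs. The widest interval was that of C1ra, which ran between −0.44 and 0.38 in SIMPL-/- MEFs and between −0.23 and 0.60 in littermate MEFs. The difference between the TNFα responses of the genotypes was called for 0 of 8 members, where 0.537% of all genes were called. It was 0.21 for Cfb (−0.03 to 0.45, adjusted p = 0.457) and −0.21 for C1ra (−0.80 to 0.37, adjusted p = 0.790). By the methods' t-test, likewise, 0 of 8 members were called in each of these 3 comparisons.

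**Figure D2:**
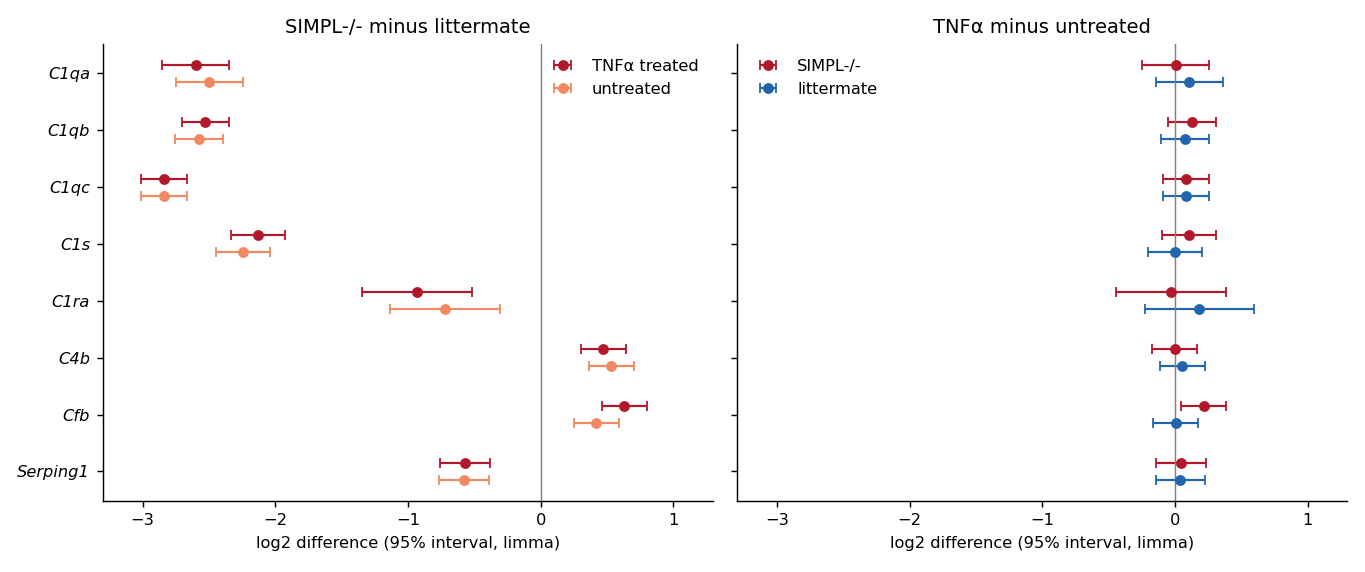
Log2 differences of the 8 members with 95% intervals from limma (horizontal axis), for SIMPL-/- minus littermate MEFs (left, TNFα treated above untreated) and for TNFα minus untreated (right, SIMPL-/- above littermate). The C1q chains and C1s lie between −2.84 and −2.13 at left, whereas at right the intervals cross 0 for every member except Cfb in SIMPL-/- MEFs.

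Markers of myeloid cells moved with the C1q chains. Of 23 measured myeloid markers, 22 were lower and 0 higher in SIMPL-/- MEFs in both comparisons, with a median log2 difference of −2.18 with and −2.07 without TNFα; Clec7a was the one not called. Their mean log2 value was 7.28 to 7.38 on TNFα treated and 7.25 to 7.42 on untreated SIMPL-/- arrays, against 9.25 to 9.71 on TNFα treated and 9.19 to 9.59 on untreated littermate arrays. On the linear scale their sum was 4922 to 5192 on TNFα treated and 4802 to 5324 on untreated SIMPL-/- arrays, against 22990 to 31535 on TNFα treated and 22001 to 28287 on untreated littermate arrays. Of the defining markers in SIMPL-/- MEFs, Ptprc (CD45) had log2 values of 6.07 to 6.57 with and 6.35 to 6.68 without TNFα, Csf1r 8.24 to 8.44 and 8.08 to 8.18, and Adgre1 6.95 to 7.23 and 7.02 to 7.26. Of 1027 olfactory receptor genes, 95% averaged below 5.83 and the highest averaged 8.45, above each of these values. By group mean, Lyz2 (10.19 with and 10.19 without TNFα) and Fcer1g (8.74 and 8.58) lay above 8.45 in both SIMPL-/- groups. Laptm5 did so without TNFα (8.48), and the other myeloid markers lay below 8.45. Against the lower mark of 5.83, only Aif1 (5.26 with and 5.33 without TNFα) and Clec7a (5.23 and 5.12) lay below in SIMPL-/- MEFs. Of the C1q chains, C1qb lay above 8.45 (8.74 and 8.61), and C1qa (8.14 and 8.13) and C1qc (8.10 and 8.02) lay below it. Each of the chains lay above 5.83. Among the members, C1ra alone lay below 5.83 in SIMPL-/- MEFs (5.74 and 5.77). Each probe set has a background of its own, so that these values do not show how much of a transcript was left. In bulk RNA, fewer cells of a type and less RNA per cell cannot be told apart, and the part of the myeloid markers in the differences of the complement genes was not tested.

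The fall of the C1q chains lay within the range of the myeloid markers and was larger than that of most of them. In untreated cells 7 of the 23 markers fell further than C1qa, 6 further than C1qb, 3 further than C1qc and 11 further than C1s, but 21 fell further than C1ra and 22 further than Serping1. Relative to the untreated littermate mean, the average of the 3 chains on the TNFα treated littermate arrays stood at 0.29, 0.09, 0.15 and −0.17, and the myeloid mean on the same arrays at 0.31, 0.12, 0.18 and −0.15. On the untreated littermate arrays the chains stood at −0.10, −0.15, 0.16 and 0.09 and the myeloid mean at −0.08, −0.21, 0.19 and 0.09. Array by array the chains and the markers were high or low together, and over the 8 littermate arrays their gap stayed between −0.04 and 0.05. The gap between C1s and the myeloid mean on these arrays ran from −0.31 to 0.37. On SIMPL-/- arrays the gap between the chains and the myeloid mean was −0.54 to −0.47 with TNFα and −0.59 to −0.52 without, whereas that of C1s was −0.16 to 0.17 with TNFα and −0.35 to −0.06 without. C1s thus lay closer to the myeloid mean than the chains did on SIMPL-/- arrays, and farther from it on each of the 8 littermate arrays. The gap of the chains is for a mean of 3 genes and that of C1s for a single gene. Averaging narrows the scatter, so that the gaps are not like measures. The values of an array share its library, and these gaps are given as a description.

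**Figure D3:**
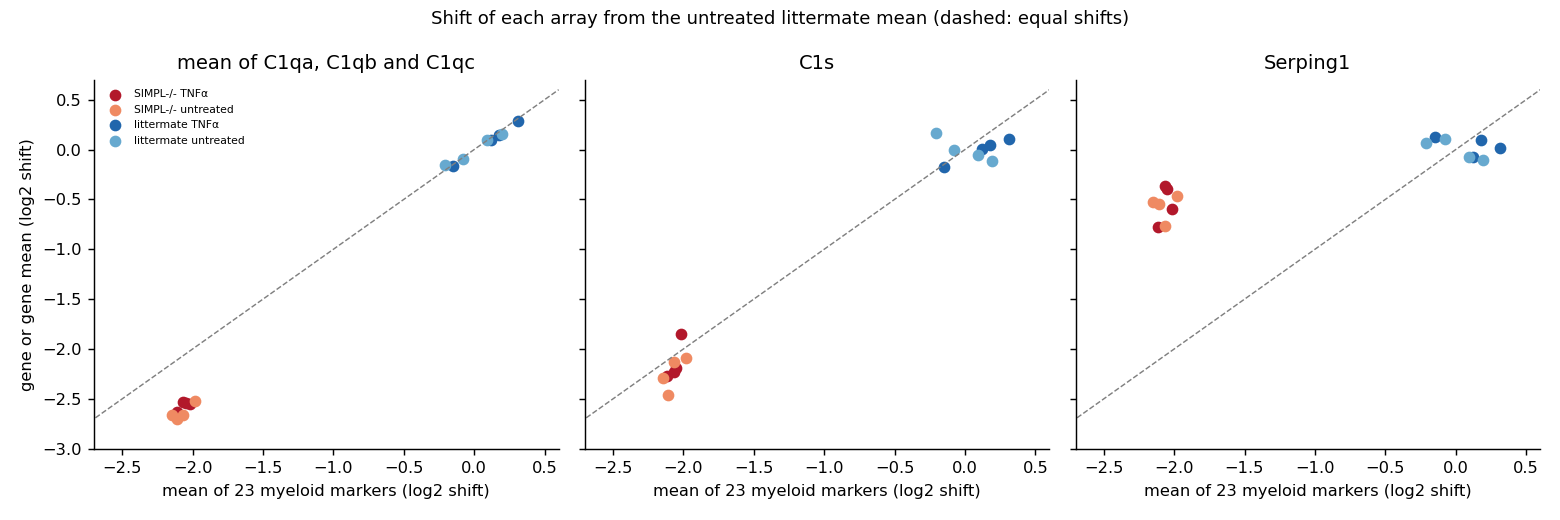
Shift of each array from the untreated littermate mean, in log2 units, for the mean of the 3 C1q chains, C1s and Serping1 (vertical axes) against the mean of 23 myeloid markers (horizontal axes); each point is an array and the dashed line marks equal shifts. The 8 littermate arrays lie along the line for the mean of the C1q chains but not for the single genes C1s or Serping1. On SIMPL-/- arrays Serping1 lies far above the line.

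The fibroblast list was less uniform. Of 18 measured fibroblast markers, 11 were lower and 2 higher in SIMPL-/- MEFs after TNFα, and 12 lower and 2 higher without it, with medians of −0.26 and −0.27. Their mean log2 value was 12.05 to 12.15 on TNFα treated and 12.11 to 12.20 on untreated SIMPL-/- arrays, against 12.50 to 12.54 on TNFα treated and 12.50 to 12.60 on untreated littermate arrays. Lum (lumican, a matrix proteoglycan) fell by 2.87 log2 units without TNFα, more than C1s and more than each C1q chain. With TNFα C1qc fell further than Lum. Of 8 adipocyte markers 7 were higher in both comparisons. Their mean log2 value was 7.61 to 7.64 on TNFα treated and 7.63 to 7.73 on untreated SIMPL-/- arrays, against 6.32 to 6.44 on TNFα treated and 6.28 to 6.40 on untreated littermate arrays. Of 5 epithelial markers 3 were higher with and 4 without TNFα. Of 8 markers of hepatocytes, the other large source of complement proteins, 1 was lower with TNFα and 1 higher without it. Of 8 endothelial markers, 2 were higher and 1 lower with TNFα, and 3 were higher without it. Of 2 measured lymphoid markers, 0 were called. Over all genes, 18.4% were lower and 17.8% higher with TNFα, and 17.6% lower and 23.3% higher without it. Counts in lists this short are given as a description. The part of these lists in the results for C1s, C1ra, Serping1, C4b and Cfb was not tested.

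By the pattern over all 16 arrays, the genes most like the mean of the C1q chains were Mrc1 (the macrophage mannose receptor), Cd68 (a macrophage lysosomal protein) and Fcrls, each with a Pearson's r of 0.999. For C1s they were Chodl, Ogdhl and Hexa (a lysosomal hexosaminidase), with r between 0.994 and 0.995. For Serping1 they were Ecrg4, Il6st (the gp130 receptor subunit) and H2-Q4, with r between 0.971 and 0.982, and for C1ra Gna15, Lmf1 and Plppr3, with r between 0.930 and 0.939. C4b lay nearest to Hdlbp, Procr and Prelp (r between 0.951 and 0.965), and Cfb nearest to Tpm3, Ahcyl1 and Ube2cbp (r between 0.952 and 0.961). These r values rest mostly on the gap between the genotypes. With each group's mean removed, r was 0.68 between C1qa and C1qb, 0.56 between C1qa and C1qc and 0.50 between C1qb and C1qc, and it was of like size between C1qc and C1ra (0.57), C4b and Serping1 (0.53), C4b and Cfb (0.50) and Cfb and Serping1 (0.47). Between C1s and C1ra it was 0.04.

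Beyond the listed genes, 42 of 45 other complement genes were measured. In TNFα treated SIMPL-/- MEFs 10 of these were lower and 4 higher, and without TNFα 12 were lower and 6 higher, with medians of −0.01 and 0.06. Over all genes, 18.4% were lower and 17.8% higher with TNFα, and 17.6% were lower and 23.3% higher without it, so that these counts are read as a description of the 42 genes. In 20 of the 42 every group mean was below the 5.83 that marks the top of most olfactory receptor genes, among them every gene of the terminal pathway except C8g. The receptors held the differences farthest from 0. C3ar1 and C5ar1, the receptors of the anaphylatoxins C3a and C5a, were lower by 7.48-fold and 3.91-fold with TNFα and by 6.74-fold and 3.45-fold without it. Itgam and Itgb2, the subunits of complement receptor 3, were lower by 3.70-fold and 3.16-fold with TNFα and by 3.42-fold and 3.32-fold without it. Cd93, a surface protein of myeloid and endothelial cells first described as a C1q receptor, was lower by 9.77-fold with TNFα (log2 difference −3.29, SE 0.11, adjusted p = 8.80e-14) and by 8.96-fold without it (−3.16, adjusted p = 1.35e-13).

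**Figure D4:**
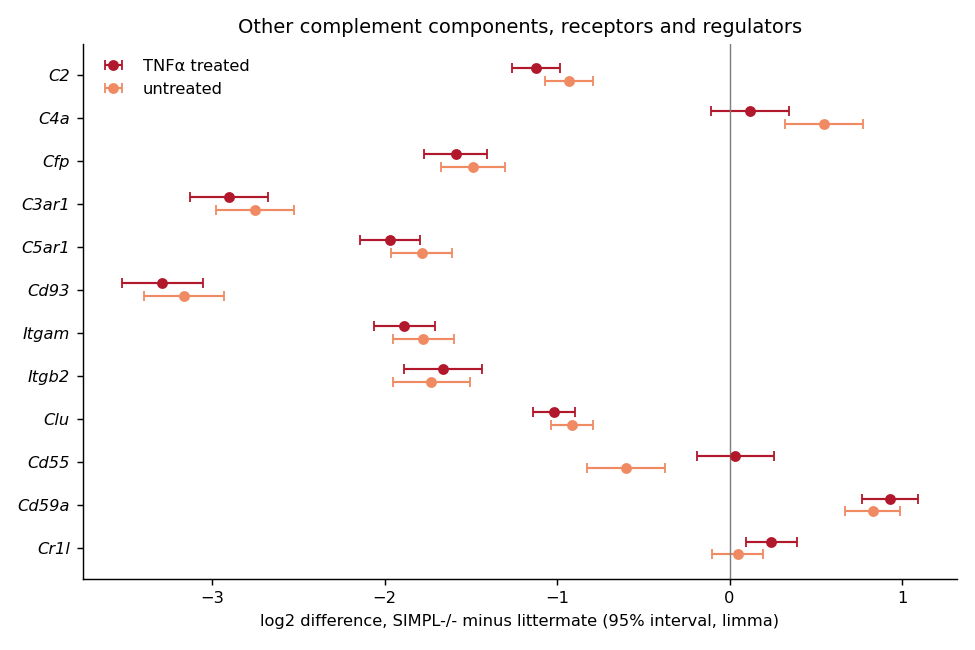
Log2 differences, SIMPL-/- minus littermate, with 95% intervals from limma (horizontal axis) for 12 further complement genes (rows), TNFα treated above untreated. The receptors C3ar1, C5ar1, Cd93, Itgam and Itgb2 and the components C2 and Cfp lie below 0, Cd59a lies above it, and Cd55 lies below it in untreated cells, with a treated interval that crosses 0.

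Among the components, C2, the partner of C4 in the classical convertase, was lower by 2.18-fold with and 1.91-fold without TNFα. Cfp, which encodes properdin, the stabiliser of the alternative convertase, was lower by 3.01-fold with and 2.80-fold without it. Clu (clusterin), a soluble inhibitor of the terminal complex, was lower by 2.02-fold with and 1.88-fold without TNFα. Cd59a, which blocks the membrane attack complex, was higher by 1.90-fold with and 1.78-fold without it. Cr1l, the rodent membrane regulator Crry, was higher with TNFα (0.24, adjusted p = 0.0113), a call that the methods' t-test did not make (adjusted p = 0.0573), and had a difference of 0.05 without it (adjusted p = 0.611).

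After TNFα, 1 of the 42 genes was called in each genotype, where 3.12% of all genes were called in SIMPL-/- and 5.15% in littermate MEFs, so that the counts set the complement genes apart in neither. In SIMPL-/- MEFs it was Cd55, the decay-accelerating factor that dismantles convertases on host cells, and in littermate MEFs it was C4a, the copy of C4b. Cd55 had log2 values of 6.39, 6.58, 6.49 and 6.82 on the TNFα treated and 5.98, 6.22, 5.86 and 6.31 on the untreated SIMPL-/- arrays, against 6.60, 6.46, 6.73 and 6.35 on the TNFα treated and 6.84, 6.72, 6.57 and 6.65 on the untreated littermate arrays. Untreated SIMPL-/- arrays were the lowest of the 4 groups, and the treated arrays of the genotypes overlapped. The response was 0.48 in SIMPL-/- MEFs (SE 0.11, adjusted p = 0.0160) and −0.16 in littermate MEFs (adjusted p = 0.509), and the difference between the responses of 0.64 did not pass the threshold (adjusted p = 0.0749), although it did with trend and robust moderation (0.0244) or array weights (0.0488). The call for Cd55 was lost by the methods' t-test (adjusted p = 0.235) and without untreated SIMPL-/- array 1 (0.0609), untreated array 3 (0.0656) or TNFα treated array 4 (0.0583). C4a rose in littermate MEFs by 0.38 (SE 0.11, adjusted p = 0.0476) and had a response of −0.05 in SIMPL-/- MEFs (adjusted p = 0.890). Its adjusted p lay between 0.0513 and 0.249 under 4 other ways of processing or testing, and in 12 of the 16 fits that left out an array the call was lost. C5ar1 in littermate MEFs lay on the other side of the threshold, with a response of 0.29 (adjusted p = 0.0573) that was called after array centring (0.0491) and in 4 further ways of processing.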

How the data were processed

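The authors deposited log2 values made with RMA in Partek (versions not given in the sources used here), whereas the study's methods name Affymetrix Microarray Suite and give 1 h of TNFα. Of 28853 probe sets, 21789 are paired with exactly 1 gene in the platform annotation, 1621 with several (left out, among them one shared by C1ra and C1rb) and 5443 are not listed. For a gene with several probe sets the brightest was kept, and every member has 1. Groups were taken from the sample titles. A limma 3.58.1 model in R 4.3.3 gave each of the 4 groups a mean over all 16 arrays (12 residual and 6.19 prior degrees of freedom), with two-sided tests and Benjamini-Hochberg adjustment over 19938 genes. No filter on dim genes was used.

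The members and gene lists were chosen with earlier results of these data known. Named genes were the members, wider complement genes called with a log2 difference of at least 1 between the genotypes or called for TNFα, a few fixed regulators and receptors, and the 3 genes closest in pattern by Pearson's r. Alternatives were array centring, quantile normalization, no dim genes, the mean of probe sets, trend and robust moderation, array weights, a fit of only the groups compared, the methods' t-test, 2 stricter thresholds and leaving out each array. The fit was also run on simulated arrays with independent noise and few changed genes. That setting lacks the broad genotype difference and any sharing of embryos, so it does not show how reliable the calls are in these data. Promoter windows and positions are from RefSeq (GRCm38.p6). C3 was not analysed here, and precision is limited by having 4 arrays in a group.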

Additional observations from a re-analysis of the deposited data

Results flagged for a closer look

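In 84 groups of 4 arrays, the gap of the highest or lowest array to its nearest neighbour was divided by the range of the group. The ratio passed Dixon's 95% critical value in 5 groups, and chance flags about 1 in 20 groups. For C1qb it was 0.884 in untreated SIMPL-/- MEFs, where array 3 stood at 8.79 and the other 3 at 8.54 to 8.56. For Cfb it was 0.894 in TNFα treated littermate MEFs, where array 1 stood at 7.48 and the other 3 at 7.19 to 7.22. Among the other complement genes, the ratio was 0.968 for C3ar1 in TNFα treated SIMPL-/- MEFs (array 4, at 8.10) and 0.914 for Clu in untreated SIMPL-/- MEFs (array 3, at 8.32). For Irak1bp1 it was 0.881 in TNFα treated littermate MEFs (array 1, at 7.65). Each of these arrays lay on its own genotype's side of the gap between the genotypes.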

How the results depend on the processing

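The direction of every member's genotype difference held under all 8 other ways of processing or testing, except that C1ra and C4b are dim genes and drop out with these, and without any 1 of the 16 arrays. The one member call lost was that of C1ra in untreated cells by the methods' t-test (adjusted p = 0.0531). Without any 1 array, 8 members were called in both genotype comparisons and 0 in the TNFα comparisons. At an adjusted p under 0.05 and over 1.5-fold, 5 members passed in untreated cells, where 1385 of all 19938 genes did. Of the 42 other complement genes, 18 were called in untreated cells, 11 at that fold and 11 of the 14 that are not dim. For TNFα in SIMPL-/- MEFs, 1 was called, 0 at either stricter threshold, 0 by the methods' t-test, 0 without dim genes and 0 to 1 without any 1 array. For TNFα in littermate MEFs, 1 was called, 2 after centring or with trend and robust moderation, 0 with the compared arrays alone, by the methods' t-test or at either stricter threshold, and 0 to 2 without any 1 array. For the difference between the responses, 0 were called, 2 with trend and robust moderation, 1 with array weights and 0 to 1 without any 1 array.

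Over all genes, 7230 were called between the genotypes after TNFα and 1604 over 1.5-fold, and 8151 without TNFα with 1385 over 1.5-fold. For TNFα in SIMPL-/- MEFs 623 were called, and 104 to 1010 under the alternatives. For TNFα in littermate MEFs 1026 were called, and 501 by the methods' t-test, 535 at an adjusted p under 0.01 and 201 over 1.5-fold. For the difference between the responses 107 were called, and 43 to 253 under the alternatives. No paired analysis was possible because nothing ties a treated array to an untreated one of the same embryo. Log2 RMA values carry no call of signal over background, which limits what can be said of C1ra and other dim genes.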
